A study of Mus musculus with 72 samples.

Results

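This account describes the 9 tumours of mice that received an isotype control antibody, chosen by that treatment label and read on 18 libraries, out of 36 tumours and 72 libraries in the whole study. The tumours were raised from 4T1, an established mouse mammary carcinoma line, by injecting 50000 cells into thigh muscle of female BALB/c mice aged 6 to 12 weeks. Injection was on day -6, the isotype antibody (400 µg) followed on day 0, and tissue was taken on day 6. Orthotopic is the word in the labels, whereas the design text names the thigh. The 9 mice carry no other treatment and no engineered allele is named, so they are the control state of this model: a single cell line, a single sex and a site rich in skeletal muscle. Tumours are called by the mouse number of the labels, 1 to 9, and each is a separate mouse.

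RNA of each tumour was read on 2 targeted amplicon panels, one of immuno-oncology genes and a custom one of TGF-β target, DNA damage, DNA repair and fibrosis genes. The labels do not say which of these is called panel 1. A targeted panel counts copies of 1 short amplicon per gene, here about 95 bases long, and sees no other transcript. There were 992 gene amplicons on panel 1 and 286 on panel 2. Together they covered 1224 genes, and 54 of these were on both. Total counts ran from 1060824 (tumour 6) to 1956764 (tumour 7) on panel 1, with a median of 1567411, and from 341400 (tumour 6) to 841046 (tumour 7) on panel 2, with a median of 538121. Values are CPM, the count per 1000000 counts of that library's panel. The panel total was first adjusted by trimmed means of M values, so CPM is not a plain share of the counts. Levels of different genes compare amplicons of nearly equal length, but they also hold how well each amplicon works.

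A tumour of this kind is a mixture of carcinoma cells, stroma, vessels and immune cells. Interferon-γ, released mainly by activated T cells and NK cells, acts through its receptor to raise chemokines that draw T cells, the MHC molecules that present peptides, and the ligand PD-L1 (gene Cd274), which restrains T cells. TGF-β is made as latent ligand, is stored on matrix and signals through a receptor pair and SMAD proteins. It acts on fibroblasts, which lay down collagen, and on immune cells. Epcam, the epithelial adhesion molecule that marks the 4T1 lineage here, was read at 11426 ± 1628 CPM (SD, n = 9) and never below 9342 CPM.

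The sequences that the results turn on are shown first. Positions are on GRCm38. Ifng, which encodes interferon-γ, had the same amplicon on both panels, in coding exon 3 of 4 at chr10:118442699-118442793 (plus strand). Cxcl12, a chemokine of stromal cells, was read across an exon border, from exon 2 into exon 3 of 4 at chr6:117171558-117173545 (plus strand), and capitals mark the bases on both sides of that border.
Ifng: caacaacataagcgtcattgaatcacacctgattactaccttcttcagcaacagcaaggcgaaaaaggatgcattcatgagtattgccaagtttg
Cxcl12: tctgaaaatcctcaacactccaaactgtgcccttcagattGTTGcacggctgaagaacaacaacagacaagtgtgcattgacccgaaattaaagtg

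Tumours 6 and 8 stood apart from the other 7, and many results below rest on them. The first principal component of the 997 genes tested, with 38.9% of the variance, placed tumour 6 at 20.6 log2 units and the others between -8.59 and 2.54. The second, with 22.8%, placed tumour 8 at 17.01 and the others between -3.56 and 0.54. The third, with 15.4%, placed tumour 3 at 10.2 and tumour 1 at 5.87, with tumour 4 lowest at -6.31. An outlying tumour was called for a gene where the gap to its nearest neighbour, divided by the whole range, passed Dixon's 95% critical value for 9 values, which chance passes for about 1 gene in 20. Of the 997 genes 174 had one, a share of 17.5%. It was tumour 6 for 115 genes (63 high and 52 low) and tumour 8 for 49 genes (47 high and 2 low), leaving 10 genes for all the others. Without tumours 6 and 8, 44 of 995 genes had an outlying tumour. Tumour 6 also had the fewest counts on both panels. The correlation of each gene with the panel total was called for 0 of 759 genes of panel 1 (137 at an unadjusted p under 0.05) and for 3 of 238 genes of panel 2 (37 unadjusted), by an exact permutation test with Benjamini-Hochberg adjustment. Without tumour 6, 0 genes were called on either panel by that test, with 36 and 18 at an unadjusted p under 0.05.

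**Figure D1:**
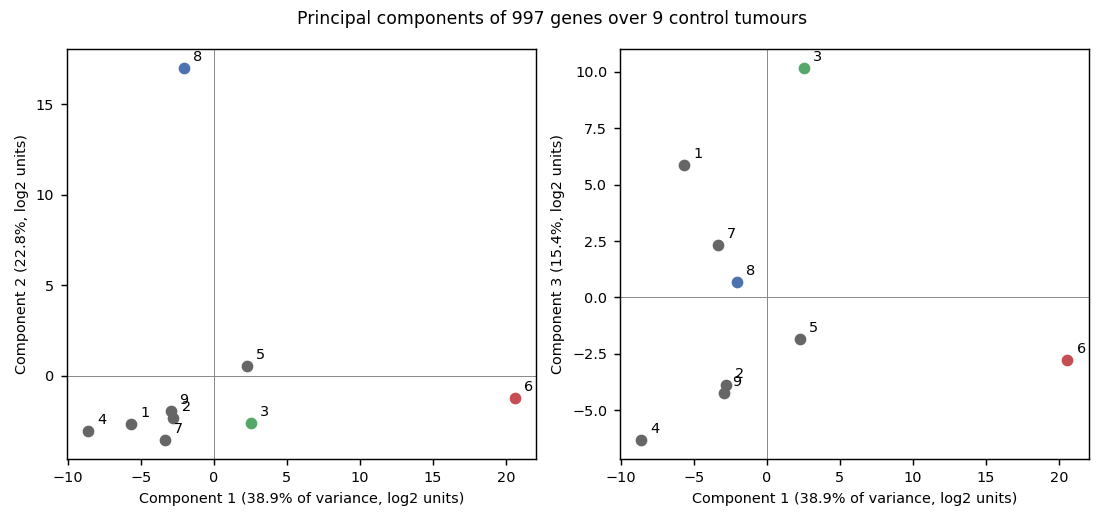
Each point is 1 tumour, labelled by mouse number, on the first principal component (horizontal axes, log2 units) against the second (left) and the third (right). Tumour 6 lies alone at 20.6 on the first, tumour 8 alone at 17.01 on the second, and tumour 3 at 10.2 and tumour 1 at 5.87 lead the third.

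On panel 1 the most abundant amplicons belonged to secreted and matrix proteins, to antigen presentation and to housekeeping genes. Spp1, which encodes osteopontin, led with 48652 ± 10939.5 CPM (SD, n = 9), followed by the ribosomal gene Rpl13a at 45018 ± 6272 CPM and by Fn1, fibronectin, at 40676 ± 6409 CPM. These 3 means lay within the SD of their neighbours. B2m, the light chain of MHC class I, averaged 35955 ± 7157 CPM, and Apoe, an apolipoprotein made by macrophages among other cells, averaged 26950.1 ± 3918 CPM. Actg1 (cytoplasmic actin), Col3a1 (collagen III), Rbm3 (an RNA-binding protein induced by cold), Ctsl (the protease cathepsin L) and Itgb1 (integrin β1) followed, from 25622 down to 13519 CPM. On panel 2, Col1a2, a chain of collagen I, led with 48583 ± 11802 CPM.

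After Col1a2 came Ctnnb1 (β-catenin) at 23928 ± 2799.7 CPM, the transcription factor gene Cebpb at 20594 ± 2741 CPM and Gadd45a, a DNA damage response gene, at 20587 ± 5221 CPM. Ctgf, a matricellular protein and TGF-β target, averaged 19749.7 ± 4242 CPM and overlapped with both. Mmp14, a membrane-bound collagenase, Itga3, Ddb1, Timp2 and Akt1 made up the rest of the 10, from 14995 to 12199 CPM. The 10 leading genes held 36.9% of all counts on panel 2 and 29.0% on panel 1. The median gene tested stood at 352 CPM on panel 1 and at 1453 CPM on panel 2, which divides the same scaled total among fewer genes, so levels are not compared across panels.

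At the other end, 47 genes had 0 counts in all 9 tumours, 45 of them on panel 1. A count of 0 allows up to 0.22 CPM there over the 9 tumours together, from 3 counts and for counting error only. They included the pigment cell genes Tyr, Tyrp1 and Dct, the germline genes Magea3, Magea4, Magea8 and Prame, the liver gene Afp and the cytokine genes Il17a and Il22. H2-Eb1, a class II MHC chain, and Marco, a macrophage scavenger receptor, were also at 0, although other class II and macrophage genes were abundant. An amplicon at 0 gives no account of whether it works in this strain. In all 227 genes, these 47 included, stayed under the mean of 10 counts that the tests needed. Pdcd1, the receptor PD-1, was one of these, with 1.9 to 12.5 CPM (median 4.57) from 3 to 19 counts per tumour, highest in tumour 8. Foxp3, the factor of regulatory T cells, was another, with 3.79 to 10.5 CPM (median 5.34).

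Differences between the libraries of control tumours exceeded counting error for nearly every gene. By a chi-square test of counts against Poisson sampling, 937 of 997 genes (94%) passed an adjusted p of 0.05 (Benjamini-Hochberg). With 1 library per tumour on each panel, the test cannot tell differences between tumours from differences in library making. The size of the spread was usually small. The median SD of log2 CPM was 0.24, with 5% of genes under 0.092 and 5% over 0.94, and the median coefficient of variation (CV) was 16.4%. An SD over 0.5 was found for 163 genes and over 1 for 40. Without tumours 6 and 8 the median SD was 0.18 and 870 of 995 genes exceeded counting error. The biological CV common to all genes in edgeR was 31.8% on panel 1 and 18.7% on panel 2, and it too includes library making.

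**Figure D2:**
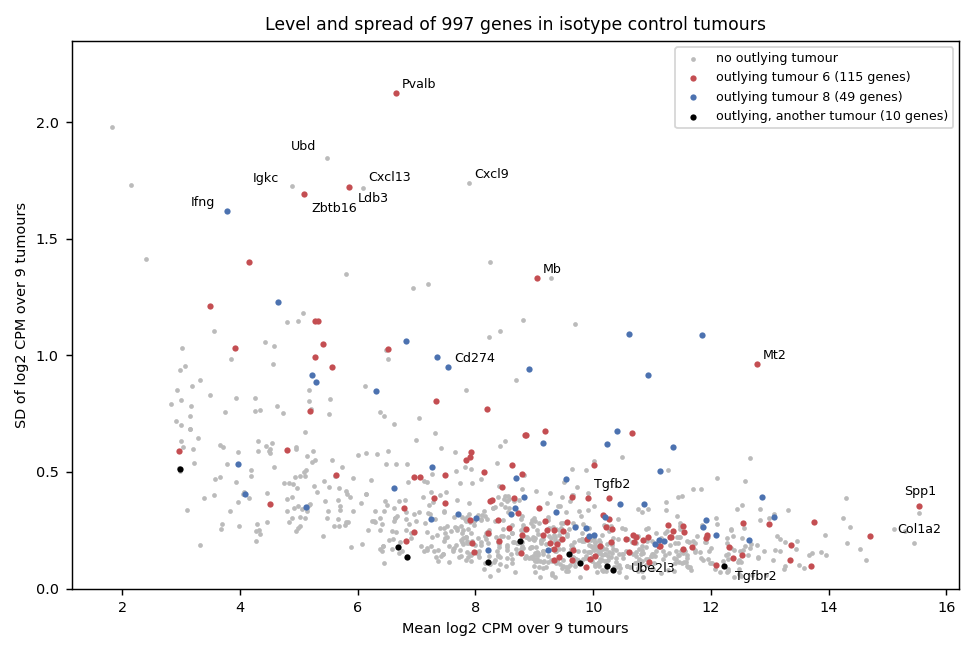
Each point is 1 of 997 genes, with its mean log2 CPM over 9 tumours (horizontal axis) and the SD of log2 CPM (vertical axis). Red and blue points are genes whose outlying tumour was 6 (115 genes) or 8 (49 genes), which hold many of the widest spreads, such as Pvalb at 2.12.

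The 10 steadiest genes were sought among the 888 with a mean of at least 50 counts. Ube2l3, a ubiquitin-conjugating enzyme, ranged from 1425 to 1552 CPM (median 1517), an SD of 0.05. Ercc6, of transcription-coupled DNA repair, ranged from 620.0 to 691 CPM (median 651), and Lta4h, of leukotriene synthesis, from 839 to 922 CPM (median 876). Psmd10, Nap1l4, E2f4, Mrps27, Smc1a, Canx and Slk completed the 10 steadiest, with SDs from 0.05 to 0.06. All 9 tumours lay within 1.13-fold of each other for each of them. The 9 reference genes marked on the panels had SDs from 0.09 (Ppil2) to 0.30 (Zfp446, with a mean of 52.6 counts). The median over all genes tested was 0.24. Of the reference genes, Map3k2 had 1615 CPM in tumour 6 and 2308 to 3152 CPM in the others, and Ppie had 528 CPM in tumour 6 and 619.5 to 700.2 CPM in the others. Scaling by the reference genes in place of all genes raised tumour 6 by 0.25 (panel 1) and 0.16 (panel 2) log2 units for the median gene. With that scaling 13 genes in place of 52 were outlying low in tumour 6, and 116 in place of 63 were outlying high there. Neither Map3k2 nor Ppie was outlying with it, and Ppie was then lowest in tumour 9, but both are among the genes that set that scaling.

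The 15 widest spreads among genes with at least 50 counts were those of Pvalb, Ubd, Cxcl9, Igkc, Ldb3, Cxcl13, Zbtb16, Cd36, Prkcq, Serpina3n, Mb, Cxcl11, Cd163, Fam26f and Gzma, with SDs from 2.12 to 1.18. The highest value was in tumour 6 for 8 of them, in tumour 8 for 4, and in tumours 1, 3 and 5 for Igkc, Cxcl13 and Gzma. They are taken up below by the tumour that led them.

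**Figure D3:**
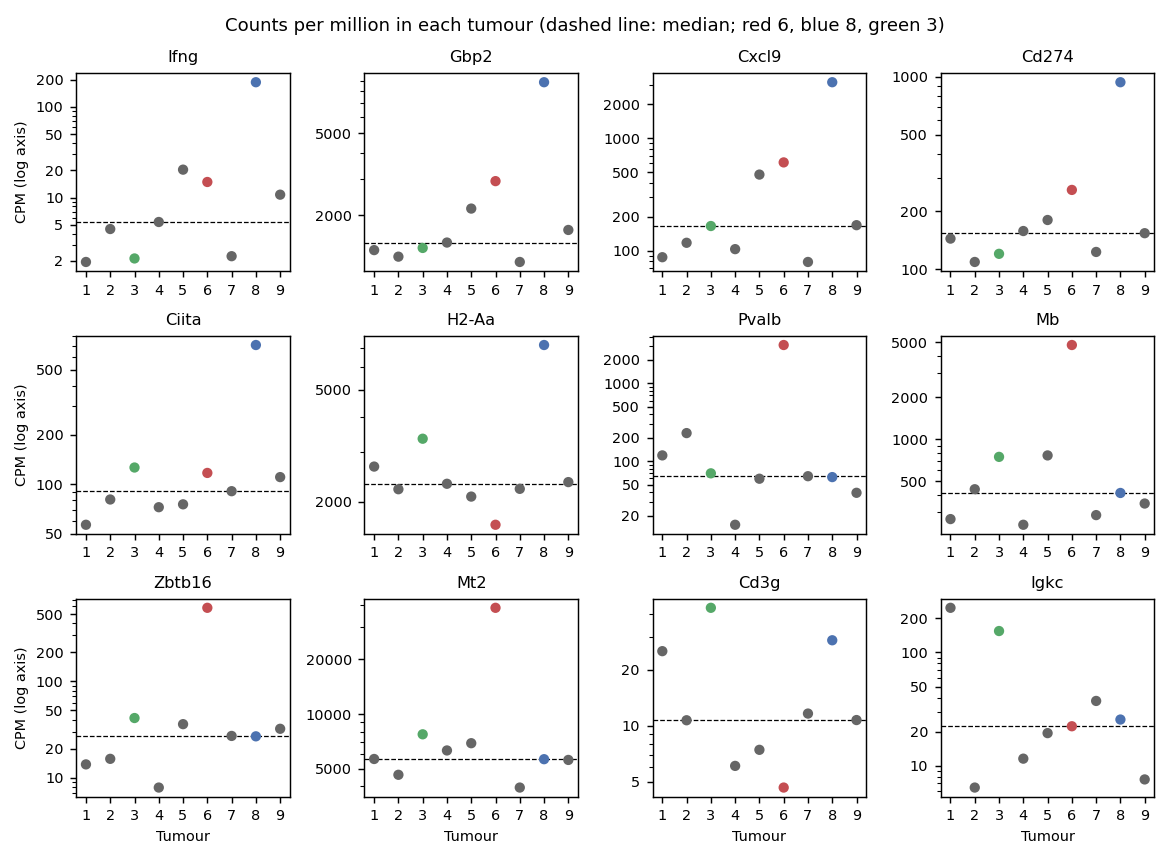
Each panel shows 1 gene with its CPM (vertical axis, log scale) in tumours 1 to 9 (horizontal axis), and a dashed line at the median. Tumour 8 is highest for the 6 genes of the interferon and MHC class II groups, tumour 6 for Pvalb, Mb, Zbtb16 and Mt2, tumour 3 for Cd3g, and tumours 1 and 3 for Igkc.

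Tumour 8 held the interferon-γ programme at levels that no other control tumour reached. Ifng had 187 CPM in tumour 8, from 99 counts, and 1.94 to 20.3 CPM in the other 8, from as few as 1 count. The T cell-attracting chemokine Cxcl9 had 3150.1 CPM in tumour 8 and 79.1 to 609 CPM in the others, so that the highest and lowest tumours differed 39.2-fold on the log2 scale with a prior count of 2. Cd274 had 938 CPM in tumour 8 and 109 to 259 CPM in the others, with a median of 154 CPM over all 9. Tumour 8 was above all others for each of them, by an outlying gap for Cd274 but not for Cxcl9, and tumours 6 and 5 came next in that order for Cxcl9 and Cd274. Ifng reached the mean of 10 counts only through tumour 8, with a mean of 4 counts in the other 8, so its values are a description.

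Of the 17 genes of the interferon-γ axis list, all tested, 15 were highest in tumour 8, against 199 of all 997 genes (20%). Ifng and Ido1, which encodes a tryptophan-degrading enzyme, were tested only through their counts in tumour 8. The median SD of the 17 was 0.92, against 0.24 over all genes. Gbp2, an interferon-induced GTPase, had 8839 CPM in tumour 8 and 1191 to 2934 CPM in the others. Socs1, a feedback inhibitor of the pathway, had 815 CPM in tumour 8 and 85.8 to 266 CPM in the others. Irf1, an early transcription factor of the response, had 5559 CPM in tumour 8 and 1796 to 2150.3 CPM in the others. Pdcd1lg2, which encodes PD-L2, had 171 CPM in tumour 8 and 21.4 to 50 CPM in the others. Tap1, the peptide transporter, had 1646 CPM in tumour 8, with tumour 6 second at 788 CPM. The receptor genes Ifngr1 and Ifngr2 were the 2 exceptions, with SDs of 0.14 and 0.23, and were highest in tumours 1 and 6.

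Many antigen presentation genes were highest in the same tumour. The class I gene H2-D1 was not, being highest in tumour 2 and lowest in tumour 8 under each scaling tried. All 5 tested MHC class II genes were highest in tumour 8, against 20% of all genes. Ciita, the master regulator of class II genes, had 709 CPM in tumour 8 and 56.6 to 127 CPM in the others. H2-Aa had 7186 CPM in tumour 8 and 1660.0 to 3347 CPM in the others. H2-Ab1 had 3452 CPM in tumour 8 and 861 to 1518 CPM in the others. The invariant chain Cd74 had 15723 CPM in tumour 8 and 3808 to 7918 CPM in the others, a gap that was outlying only when scaled by the reference genes. The lowest value of H2-Aa, Cd74 and H2-DMa was in tumour 6, also when scaled by the reference genes. The immunoproteasome genes Psmb8, Psmb9 and Psmb10 were all highest in tumour 8, with Psmb9 at 4184 CPM there and at 952 to 1906 CPM in the others. Among 7 type I interferon-stimulated genes 6 were highest in tumour 8, against 20% of all genes. With the reference genes 5 were, against 18.1%, and with total counts 4 were, against 13.3%. The differences were smaller: Oas3, an antiviral sensor, had 229 CPM there and 68.2 to 131 CPM in the others. Of those 7 genes 0 had an outlying tumour, against 17.5% of all genes, and Ddx58 was highest in tumour 7, at 395 CPM against 394 CPM in tumour 8. With the reference genes Irf7 was outlying high in tumour 8 and Ddx58 was highest there.

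Some markers of killer lymphocytes were also highest in tumour 8. This held for 4 of the 9 cytotoxic and NK cell genes tested, against 20% of all genes, while 3 were highest in tumour 3 and 2 in tumour 5. Ifng was 1 of the 4 and reached the mean of 10 counts only through tumour 8, so its place there is no independent result. It also enters the median deviations of the list given below. Klrk1, which encodes the receptor NKG2D, had 165 CPM in tumour 8 and 18.9 to 50.3 CPM in the others, and Gzmb, a granzyme, had 112 CPM in tumour 8 and 9.94 to 41.2 CPM in the others. Gzma was highest in tumour 5, with 138 CPM, and had 74.9 CPM in tumour 8. Eomes, a transcription factor of these cells and the gene of the list with the most counts, was lowest in tumour 8, with 55.8 CPM there and 60.03 to 99.3 CPM in the others. The median deviation of the 9 cytotoxic and NK cell genes tested from their own means was 1.17 log2 units in tumour 8, 0.79 in tumour 5, 0.39 in tumour 3 and 0.29 in tumour 6, and below 0 in the other 5. In bulk tissue more cells of a type and more RNA per cell cannot be told apart, and this holds for all cell type markers here. The part of these cells in the interferon genes was not tested.

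The median correlation between 2 of the 17 genes was 0.85 over the 9 tumours, against -0.002 between any 2 genes tested, 0.38 without tumour 8 and 0.09 without tumours 6 and 8. For MHC class II genes it was 0.82 over all 9 and 0.34 without tumour 8. These are descriptions over genes read in the same 9 tumours, so they carry no p.

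Promoters of the genes that were outlying high in tumour 8 were compared with all others, on RefSeq windows of GRCm38.p6 from 250 bases before to 50 after the start. The motif TTCNNNGAA, which is its own reverse complement and is the core of the γ-activated site, was found for 10 of the 36 such genes with a window (47 genes in all), 27.8%. It was found for 9.55% of all 27025 genes in the table and for 9.40% of the genes tested with a window. The core of the interferon-stimulated response element, GAAA and again GAAA with 2 bases between or the same read on the other strand as TTTC, was also found for 10 of the 36, against 3.99% of all genes and 6.98% of the genes tested. Among genes outlying high in tumour 6 the shares were 12.2% and 4.08% of 49 genes with a window. These shares were not tested, and a match is a stretch of letters, not a shown binding site. Irf1 and Psmb8 are shown for the first motif and Gbp2 and Socs1 for the second, each as 120 bases with every match in capitals. In Socs1 a pair of matches overlap.
Irf1 chr11:53769869-53769988, plus strand: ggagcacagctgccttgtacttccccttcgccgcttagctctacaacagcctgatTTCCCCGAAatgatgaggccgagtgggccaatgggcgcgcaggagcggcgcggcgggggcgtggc
Psmb8 chr17:34198043-34198162, plus strand: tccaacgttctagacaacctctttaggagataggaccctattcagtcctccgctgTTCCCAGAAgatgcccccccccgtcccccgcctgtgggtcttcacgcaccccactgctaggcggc
Gbp2 chr3:142620543-142620662, plus strand: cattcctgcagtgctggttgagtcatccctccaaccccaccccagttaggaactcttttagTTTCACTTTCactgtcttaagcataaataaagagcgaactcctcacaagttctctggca
Socs1 chr16:10785555-10785674, minus strand: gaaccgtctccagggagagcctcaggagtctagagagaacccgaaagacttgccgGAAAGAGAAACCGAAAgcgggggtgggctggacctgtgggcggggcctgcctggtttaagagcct

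Tumour 6 was led by genes of skeletal muscle. Pvalb, the calcium buffer of fast muscle fibres (amplicon in the 3′ UTR, exon 4 of 4, chr15:78191173-78191267), had 3109 CPM in tumour 6 and 15.2 to 229 CPM in the others. Ldb3, of the muscle Z-disc, had 1087 CPM in tumour 6 and 17 to 66.7 CPM in the others. Mb, myoglobin, had 4769 CPM in tumour 6 and 242 to 765 CPM in the others, and Myod1, the muscle-determining factor, had 166 CPM in tumour 6 and 7.77 to 51.7 CPM in the others, from 4 to 56 counts. Mb and Myod1 were the only 2 of 21 listed muscle genes on the panels, and both were highest in tumour 6, against 23.8% of all genes. Among the muscle membrane and stress genes, Dysf had 1091 CPM in tumour 6 and 189.7 to 370.4 CPM in the others, and Cryab had 1820.0 CPM in tumour 6 and 376 to 648 CPM in the others. Tumour 5 came second for Mb and Myod1.

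Further genes were outlying high in tumour 6. Zbtb16, a zinc finger factor, had 581 CPM in tumour 6 and 7.91 to 41.7 CPM in the others. The metallothionein gene Mt2 had 38444 CPM in tumour 6 and 3942 to 7739 CPM in the others, and Tsc22d3, known as the glucocorticoid-induced leucine zipper, had 5228 CPM in tumour 6 and 1095 to 1737 CPM in the others. Klf9 and Cdkn1a, the cell cycle inhibitor p21, were outlying too. Klf9 had 998 CPM in tumour 6 and at most 412 CPM elsewhere, and Cdkn1a had 2702 CPM in tumour 6 and at most 1031 CPM elsewhere. Acacb, the acetyl-CoA carboxylase of heart and skeletal muscle, had 562 CPM in tumour 6 and 44.4 to 92.5 CPM in the others. Ank1, Abcb4, Egf, Alpl, Amhr2 and Rora were also outlying high there, with gaps of 2.14 to 2.99 log2 units to the next tumour. The haptoglobin-haemoglobin receptor gene Cd163 had 643 CPM in tumour 6, 274 in tumour 3 and 253 in tumour 9, so no tumour was outlying.

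Proteasome genes, a group picked after its values were seen, were high in tumour 6 by less. Of 34 tested subunits other than the 3 induced by interferon, 26 were highest in tumour 6, against 23.8% of all genes, and 10 were outlying high there, against 6.32% of all genes, with a median deviation of 0.32 log2 units. Psmd2, of the regulatory particle, had 9598 CPM in tumour 6 and 4970.0 to 6446 CPM in the others, and Psmb5, a catalytic subunit, had 2694 CPM in tumour 6 and 1647 to 2093 CPM in the others. The 3 immunoproteasome genes, in contrast, were led by tumour 8. The count of 26 was between 23 and 32 under the other scalings. Outlying high in tumour 6 were 2 of the 34 with total counts (5.88%), against 4.61% of all genes. With the reference genes they were 18 (52.9%), against 11.6%, and with DESeq2 size factors 10 (29.4%), against 6.72%.

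Other genes were outlying low in tumour 6. Spp1 had 27982 CPM in tumour 6 and 43661 to 66768 CPM in the others, and Apoe had 18631 CPM in tumour 6 and 24885 to 33173 CPM in the others. Acp5, tartrate-resistant acid phosphatase, had 740.1 CPM in tumour 6 and 1178 to 1522 CPM in the others. Bank1, a B cell scaffold, had 6.52 CPM in tumour 6, from 7 counts, and 30.9 to 108 CPM in the others, and the integrin gene Itga3 had 8571 CPM in tumour 6 and 12416 to 16281 CPM in the others. Of these genes Itga3 and Bank1 were outlying low under each scaling tried. Spp1 was not outlying under the other 3 scalings, Apoe was not with DESeq2 size factors or reference genes, and Acp5 was not with reference genes, although each of them was still lowest in tumour 6. Of 8 macrophage and monocyte genes tested, 5 were lowest in tumour 6, against 32.7% of all genes, but 0 of 8 were when scaled by the reference genes, against 13.3%. Cd163, of the same list, was highest in tumour 6 under each scaling tried. The levels of muscle genes and the low library totals of tumour 6 stand beside all these values, and their part in them was not tested.

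T cell genes followed another order of tumours. Of 15 T cell genes on the panels 10 reached the mean of 10 counts, and 9 of these 10 were highest in tumour 3, against 8.02% of all genes. Cd4 was one of the 10 only through its 25 counts in tumour 3. Cd3g, a chain of the T cell receptor complex, had 43.2 CPM in tumour 3, 28.9 in tumour 8 and 25.2 in tumour 1, and 4.65 to 11.6 CPM in the other 6. Cd3e, another chain, had 25.8, 17.1 and 16.1 CPM in the same tumours and 3.04 to 9.31 CPM in the others. Lck, a T cell kinase and the most abundant of the list, had 82.6 CPM in tumour 3 and 76.8 in tumour 8, with 37.2 to 70.9 CPM elsewhere, so the tumours form a graded series. The median deviation of the list from the genes' means was 1.23 log2 units in tumour 3, 0.74 in tumour 1 and 0.58 in tumour 8. For the interferon-γ axis it was -0.31 in tumour 3, -0.47 in tumour 1 and 2.18 in tumour 8. Cd8a, which was not tested, had 16.4 CPM in tumour 8, 10.6 in tumour 3 and at most 3.72 in the others.

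B cell genes were concentrated in tumours 1 and 3. Igkc, the κ light chain constant region, had 248 CPM in tumour 1 and 155 CPM in tumour 3, and 6.43 to 37.4 CPM in the other 7. Cr2, the complement receptor of mature B cells and follicular dendritic cells, had 32.9 and 37.1 CPM in these tumours and at most 2.43 CPM elsewhere. Ms4a1, which encodes CD20, had 42.1 and 23.5 CPM in tumours 1 and 3 and 0 to 3.40 CPM elsewhere. Cxcl13, the chemokine that attracts B cells, had 538 CPM in tumour 3 and 138 CPM in tumour 1, but tumour 6 had 134 CPM and tumour 7 116 CPM. Cr2 and Ms4a1 reached the mean of 10 counts only through tumours 1 and 3, with means of 1.14 and 2.29 counts in the other 7, so their agreement with Igkc (mean of 30.6 counts in the other 7) is no independent result. These counts are small, at most 324 for Igkc in a library. Pax5, a B cell factor with too few counts to test, had 18.4 CPM in tumour 1 and 8.34 CPM in tumour 3, and at most 1.46 CPM elsewhere.

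**Figure D4:**
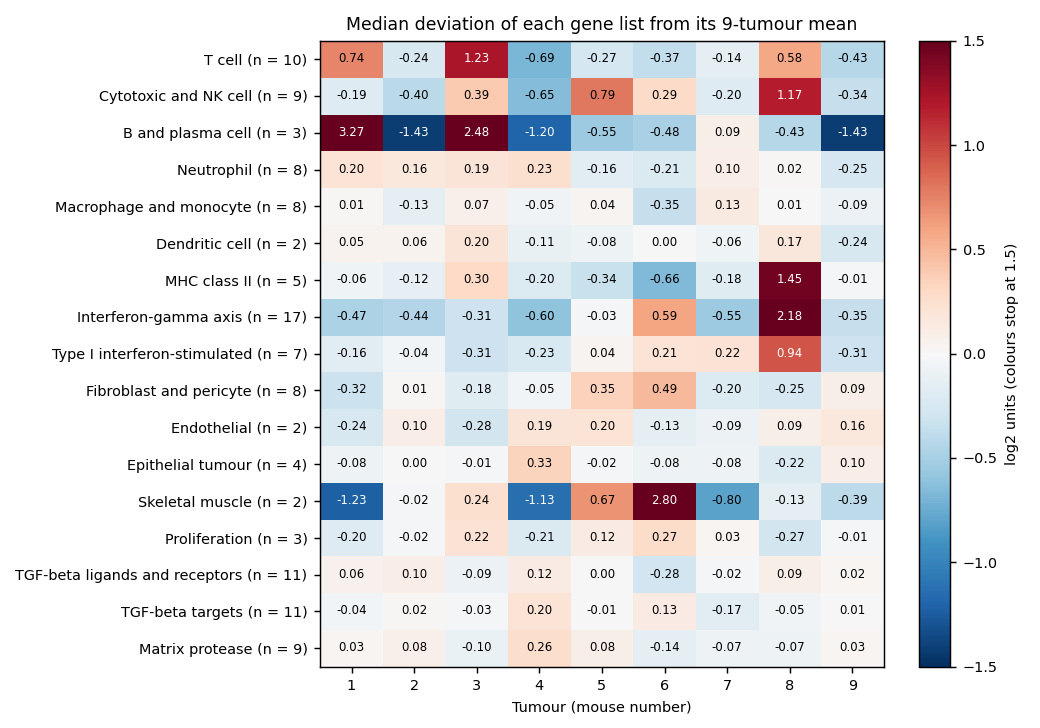
Each cell gives the median, over the tested genes of a list (row, with their number), of the log2 deviation from the gene's mean over 9 tumours (column: mouse number). Tumour 8 is at 2.18 for the interferon-γ axis and 1.45 for MHC class II, tumour 6 at 2.80 for skeletal muscle, and tumours 1 and 3 at 3.27 and 2.48 for B cells. Of the 3 B cell genes, 2 (Cr2 and Ms4a1) were tested only through their counts in tumours 1 and 3.

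By their median SD, neutrophil and macrophage genes varied less than the T cell and interferon lists. The 8 neutrophil genes tested had a median SD of 0.39 and a median pairwise correlation of 0.04. S100a8, a calprotectin chain, had 1367 to 4373 CPM (median 2416), highest in tumour 6 and lowest in tumour 8. Cxcr2, the receptor that guides neutrophils, had 17.7 CPM in tumour 8 and 32.6 to 40.8 CPM in the others, an outlying low value. Prtn3 and Fpr1, granule and formyl peptide receptor genes, were highest in tumour 1, at 73.4 and 42.1 CPM. Mmp9, a gelatinase of neutrophils and other cells, had 4677 to 8917 CPM (median 7482). The 8 macrophage and monocyte genes had a median SD of 0.24, the same as all genes. The widest of the 8 was Cd163, with an SD of 1.29 and its highest value in tumour 6. Their median pairwise correlation was 0.09 over the 9 tumours, 0.40 without tumour 8 and 0.22 without tumours 6 and 8. Cd68 had 792 to 1113 CPM (median 885) and Csf1r, the receptor of the macrophage growth factor, 1309.9 to 2050.1 CPM (median 1710.0). Ccr2, the receptor of recruited monocytes, ranged more, from 508 CPM in tumour 6 to 1233 CPM in tumour 3, and was lowest in tumour 9 when scaled by the reference genes.

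Genes of the TGF-β pathway spread about as much as other genes. The 11 ligand, receptor and SMAD genes tested had a median SD of 0.19, against 0.24 over all genes, and without tumours 6 and 8 these were 0.17 and 0.18. Of the 11, 0 had an outlying tumour, against 17.5% of all genes. Among the ligands, Tgfb1 had 2007 to 3086 CPM (median 2767), and Tgfb3 had 517 to 971 CPM (median 861), both lowest in tumour 6. Tgfb2 was the ligand with the widest spread, an SD of 0.41. It had 1683 CPM in tumour 6, 1306 in tumour 5 and 715 to 1008 CPM in the other 7. The receptor genes Tgfbr1 and Tgfbr2 had 4139 to 5609 CPM (median 4862) and 4468 to 5379 CPM (median 4928), SDs of 0.14 and 0.08. Smad2 and Smad4, of the signalling core, had SDs of 0.08 and 0.07, and Smad3 had 0.31. Ltbp1, which binds latent TGF-β to matrix, had 5629 CPM in tumour 6 and 7112 to 11257 CPM in the others. Of the 11 genes 6 were lowest in tumour 6, against 32.7% of all genes, and 4 were when scaled by the reference genes, against 13.3%.

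TGF-β target genes had a median SD of 0.22 over 11 genes, and 6 of these were highest in tumour 6, against 23.8% of all genes. With the reference genes 6 were as well, against 40.4%. Ctgf had 28187 CPM in tumour 6 and 13458 to 22676 CPM in the others, and the matricellular Thbs2 had 15551 CPM in tumour 6 and 7446 to 12344 CPM in the others. Myc was the only one of the 11 with an outlying tumour, low in tumour 6, and was not outlying under the other 3 scalings. The targets had a median pairwise correlation of 0.10, close to that of all genes.

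Fibroblast genes formed a graded series led by tumours 6 and 5. Of the 8 tested, 5 were highest in tumour 6, against 23.8% of all genes, and 3 in tumour 5, against 4.51%. Pdgfrb, a receptor of pericytes and fibroblasts, was one of the 3, with 797 CPM in tumour 5, 563 in tumour 6 and 490 to 697 CPM in the others. Col1a2 had 71344 CPM in tumour 6, 63729.6 in tumour 5 and 51796 in tumour 9, and 37684 to 49029.5 CPM in the others, with no gap that sets a tumour apart. Lox, the collagen cross-linking enzyme, had 8616 CPM in tumour 6 and 3017 to 5531 CPM in the others, and Dcn, the proteoglycan decorin, had 6345 CPM in tumour 6 and 2303 to 3998 CPM in the others. The median pairwise correlation of the list was 0.58, and 0.48 without tumours 6 and 8. Epithelial genes did not vary together: Epcam had an SD of 0.20, Msln ranged from 401 CPM in tumour 8 to 911 CPM in tumour 3, and Muc1 from 24.5 to 57.5 CPM. The proliferation genes Mki67, Pcna and Birc5 had SDs of 0.21, 0.17 and 0.27. Only 2 endothelial genes were read, Eng and Kdr, with SDs of 0.21 and 0.25. Of matrix proteases, Mmp12, the elastase of macrophages, had the largest SD, 0.51, with 487 to 1270.0 CPM (median 838), and Mmp8 had 43.6 to 96.7 CPM (median 76.3). Irf8 and Ccl17 stood for dendritic cells and went opposite ways in tumour 8. Irf8 had 898 CPM in tumour 8 and 371 to 489 CPM in the others, whereas Ccl17, a chemokine, had 71.6 CPM in tumour 8 and 93.2 to 145 CPM in the others. Their correlation was -0.72 over the 9 tumours and -0.15 without tumour 8.

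Co-variation was tested between 7 anchor genes, one for each cell class or programme, and every other gene tested, 6972 pairs in all. No T cell gene reached the mean of 50 counts asked of an anchor. Each p comes from all 362880 pairings of the 9 tumours (exact permutation test, two-sided), adjusted by Benjamini-Hochberg over the 6972 pairs. Of these, 3 pairs were called, a share of 0.043%, and 1103 had an unadjusted exact p under 0.05. The pairs of 2 anchors, Epcam and Adgre1, are described.

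Epcam and Cxcl12 ran in opposite directions with r = -0.961 (exact permutation p = 2.76e-06, the smallest the pairings can give, and adjusted p = 0.00961), and their ranks were exactly reversed, rho = -1 (exact permutation p = 5.51e-06). Cxcl12 had 504 and 496 CPM in tumours 6 and 3, where Epcam was lowest at 9342 and 9911 CPM, and 96.2 CPM in tumour 4, where Epcam was highest at 14268 CPM. Without tumours 4 and 6 r was -0.926 (exact permutation p = 0.000198). The pair was not called when scaled by the reference genes (r of Epcam and Cxcl12 -0.78, exact permutation test, adjusted p = 0.218) or by total counts (adjusted p = 0.104), and with the reference genes Epcam was lowest in tumour 7. The macrophage gene Adgre1, which encodes F4/80, and Thumpd1, a tRNA modification gene, had r = 0.939 (exact permutation p = 1.38e-05, adjusted p = 0.032). Their rho was 0.967 (exact permutation p = 0.000165, adjusted p = 0.072), so the pair was not called by rank correlation. Without tumours 6 and 9 r was 0.953 (exact permutation p = 0.00179). With 1 tumour left out 0 to 4 pairs were called, and 0 when it was tumour 2, 3, 4, 6, 7 or 9. Without tumours 6 and 8 together 0 pairs were called and 714 had an unadjusted exact p under 0.05. With 7 tumours the pairings number 5040, so no single pair could pass the adjustment on its own. That holds too with 1 tumour left out, so a count of 0 there does not show that a pair depended on that tumour.

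**Figure D5:**
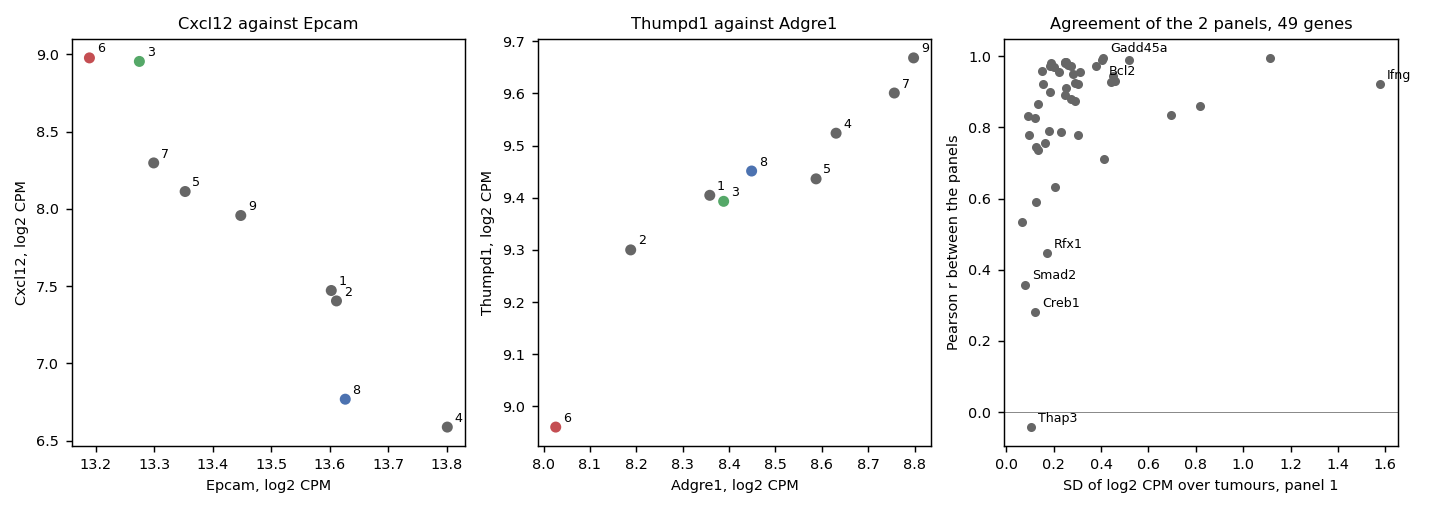
The left and middle plots show a called pair each, with log2 CPM of the anchor (horizontal axis) against its partner (vertical axis) and 1 point per tumour, labelled by mouse number. The right plot shows, for each of 49 genes read on both panels, the SD over tumours on panel 1 (horizontal axis) against the correlation between panels (vertical axis), where the 4 genes under 0.5 all had small SDs.

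The anchors without a called partner had close misses. Col1a2 and Tgfb2 had r = 0.961 (exact permutation p = 5.79e-05, adjusted p = 0.0528), rho = 0.9 (exact permutation p = 0.00203) and r = 0.834 without tumours 5 and 6 (exact permutation p = 0.00952). H2-Aa and Cd74 had r = 0.986 (exact permutation p = 6.06e-05, adjusted p = 0.0528), rho = 0.917 (exact permutation p = 0.00131) and r = 0.939 without tumours 3 and 8 (exact permutation p = 0.00437). Csf3r, a neutrophil growth factor receptor, and Ms4a4a, a macrophage membrane gene, had r = -0.961 (exact permutation p = 5.79e-05, adjusted p = 0.0528), rho = -0.983 (exact permutation p = 4.96e-05) and r = -0.946 without tumours 2 and 6 (exact permutation p = 0.00337). The proliferation gene Mki67 was closest to the DNA repair gene Fanca, r = 0.925 (exact permutation p = 0.000623, adjusted p = 0.0954), rho = 0.933 (exact permutation p = 0.00075) and r = 0.956 without tumours 7 and 8 (exact permutation p = 0.000794).

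Cd274 was not called with any anchor. Apart from Tgfb2 with Col1a2, the lowest adjusted p of Tgfb1, Tgfb2, Tgfb3, Tgfbr1 and Tgfbr2 with an anchor was 0.219 (exact permutation test), for Tgfb3 with Csf3r and Tgfbr2 with Epcam. The edgeR quasi-likelihood test with the anchor as covariate called 138 of the 6972 pairs, of which 20 were with H2-Aa and 34 with Epcam (11 positive and 23 negative). By this quasi-likelihood test Cd74 and H2-Ab1 were called with H2-Aa and Tgfb2 with Col1a2. For H2-Aa and H2-Ab1 r was 0.968 (exact permutation p = 0.00122, adjusted p = 0.115). Without tumours 3 and 8 it was 0.587 (exact permutation p = 0.162). That model assumes a distribution that the exact test does not.

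Genes read on both panels give 2 measurements of a tumour, since both libraries carry the same mouse number. For 49 genes with at least 10 counts on average on each panel, the median correlation of the panels over 9 tumours was 0.910, with 34 genes above 0.8. The SD of the difference between panels had a median of 0.094, against SDs over tumours of 0.25 (panel 1) and 0.23 (panel 2). Among the closest were Gadd45a (r = 0.996) and Bcl2, the apoptosis inhibitor (0.989). Ifng, with means near 14 counts on each panel, had 0.922. The 4 genes below 0.5 were Thap3 (-0.042), Creb1 (0.280), Smad2 (0.358) and Rfx1 (0.447), all with SDs of at most 0.17 on both panels. For 13 genes with an SD above 0.3 on both panels the lowest correlation was 0.711. The same amplicon stood 1.45 log2 units lower on panel 1 in the median, where the scaled total is divided among more genes. That difference had an SD of 0.22 over the 47 genes with the same amplicon on both. These values describe agreement and carry no test.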

How the data were processed

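Raw counts per amplicon were used as deposited in 1 table, whose rows name the panel. The submitters' processing notes name DESeq2 without a version and the builds GRCm38 and GRCh38. The sources used here do not name the aligner or the counter, nor say whether reads or molecular tags were counted. Position columns are headed GRCh38 in the file headers, but 1195 of the 1224 amplicons used have both ends in exons of the named gene on GRCm38, so positions are given on that build. The authors also deposited log2-scale values (regularized log), which were used in 1 alternative only. The 27 columns of other groups in each table were not used. The 10 rows of genomic DNA controls, with 1 count in all, were dropped.

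Each panel was normalized by itself with trimmed means of M values in edgeR 4.0.16 (R 4.3.3), and a gene on both panels was taken from the one with its larger total. Genes with a mean of at least 10 counts were tested on log2 CPM with a prior count of 2. Counts of different tumours always differed beyond counting error (smallest chi-square per degree of freedom 10.8), so no library was a repeat. Spread was tested with chi-square against Poisson sampling, outlying tumours with Dixon's ratio, and co-variation with exact permutation tests in scipy 1.17.1, with numpy 2.4.6, pandas 2.3.3 and matplotlib 3.10.9. The scripts were tested on simulated data. Intervals of counting error do not cover amplification.

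Named were the 10 highest levels per panel, the reference genes, the 15 widest and 10 narrowest spreads, the widest outlying gaps, the best and worst panel agreement, called partners of anchors, 4 members per list, and Cd274, Pdcd1 and the TGF-β ligands and receptors. A few single-gene results and 1 called pair are not reported here. Further genes were named after their values were seen. The members, lists and tests were chosen with earlier results of these data known. The alternatives were DESeq2 1.42.0 size factors, total counts, reference-gene factors, other filters and prior counts, deposited log2 values, rank correlation, edgeR's quasi-likelihood test and leaving out tumours.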

Additional observations from a re-analysis of the deposited data

Results flagged for a closer look

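For the genes named in the text, single tumours stood apart by the gap to the nearest neighbour divided by the range of log2 CPM over 9 tumours. Chance gives such a gap in about 1 gene in 20. Tumour 6 was high with ratios of 0.835 for Rora, 0.796 for Ank1, 0.738 for Egf, 0.714 for Acacb, 0.704 for Mt2 and 0.679 for Ldb3. It was high too with 0.629 for Zbtb16, 0.618 for Amhr2, 0.615 for Mb, 0.587 for Abcb4, 0.586 for Alpl and 0.497 for Pvalb. Tumour 6 was low with 0.641 for Ddb1, 0.582 for Creb1, 0.578 for Itga3, 0.567 for Ppie, 0.534 for Map3k2, 0.512 for Spp1 and 0.502 for Apoe. Named after their values were seen, Cdkn1a (0.791), Tsc22d3 (0.705), Klf9 (0.685), Cryab (0.656), Dysf (0.618), Psmd2 (0.605) and Psmb5 (0.513) were high there, and Acp5 (0.645), Bank1 (0.536) and Myc (0.521) low. Among the low genes, Ppie and Map3k2 are reference genes of the panels and so help set the scaling by these. The correlation of the 2 panels over 9 tumours was 0.280 for Creb1 and 0.591 for Ppie, against 0.972 for Map3k2. Of the genes low in tumour 6, Itga3 and Bank1 alone were outlying when scaled by the reference genes, and tumour 6 was then no longer the lowest for Creb1 and Ppie. Psmb5 was not outlying with total counts.

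Tumour 8 was high with ratios of 0.687 for Irf8, 0.684 for Ciita, 0.6 for Cd274, 0.595 for Fam26f and 0.592 for H2-Ab1. It was also high with 0.588 for Ifng, 0.555 for Klrk1, 0.55 for Gbp2 and 0.521 for H2-Aa. Named after their values were seen, Irf1 (0.841), Psmb10 (0.599), Pdcd1lg2 (0.598), Psmb9 (0.531), Psmb8 (0.503) and Socs1 (0.499) were high there, and Cxcr2 (0.727) was low. Gbp2, Klrk1, Socs1, Psmb8, Psmb9 and Psmb10 were not outlying with the reference genes, and H2-Aa, Socs1, Psmb8 and Psmb9 were not with total counts, but tumour 8 stayed the highest for each. Ifng had a mean of 4 counts in the other 8 tumours and was tested only through tumour 8. None of these genes had its outlying value in the other 7 tumours. Tumour 6 had the lowest total count on both panels and the highest myoglobin level, and the part of either in its values was not tested.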

How the results depend on the processing

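The number of pairs called depended most on the setting. It was 3, against 12 with DESeq2 size factors, 7 with the deposited log2 values, 138 with edgeR's quasi-likelihood test, 11 with a mean of at least 50 counts, 10 with reference-gene factors and 20 with total counts. It was 0 without tumours 6 and 8, an alternative chosen after seeing the data like the median correlations of lists without them and the T cell anchor. With Cd3g, at a mean of at least 10 counts, as that anchor, 0 of 996 pairs were called by the exact test and 74 had an unadjusted p under 0.05. Leaving out 1 tumour gave 0 to 4 pairs. The cause was not tested.

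Genes highest in tumour 6 numbered 237, and 403 with reference-gene factors, while genes lowest there numbered 326, and 133 with those factors. Those factors moved the median gene of tumour 6 by 0.25 (panel 1) and 0.16 (panel 2) and of tumour 4 by -0.11 (panel 1) log2 units, and total counts moved tumour 8 by -0.12. Genes lowest in tumour 8 numbered 121, and 225 with total counts. Median CPM over genes was 632 with at least 50 counts and 355 with no filter, since other genes enter. Median SD was 0.24, against 0.14 with the deposited log2 values and 0.18 without tumours 6 and 8, and 0.20 to 0.24 with 1 tumour left out. Genes with an outlying tumour numbered 174, against 44 without tumours 6 and 8 and 99 (without tumour 6) to 178 with 1 left out. The first component held 38.9%, and 34.6% (without tumour 6) to 50.03% (without tumour 8). T cell genes highest in tumour 3 were 9 of 10, and 1 of 1 at a mean of at least 50 counts. Over named genes and alternatives, 212 SDs moved by more than their jackknife error and 1864 did not. Of 1952 means, 0 moved by more than 1 SD over tumours, but leaving out 1 of 9 tumours can hardly move a mean that far. Of the correlations 17 became called, 29 lost the call and 163 kept their side of the threshold. No paired analysis was possible because 1 group is described and mouse numbers are not shared. Low counts limit the T, B and killer cell genes.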

Other observations

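Fabp4, Serpina3n and Cd36, chosen after their values were seen for being high in tumours 6 and 3, are given as values with no test. Fabp4, a fatty acid carrier of adipocytes and macrophages, had 2664 CPM in tumour 6, 2446 in tumour 3 and 1525 in tumour 7, and 307 to 817 CPM in the other 6. Serpina3n, a protease inhibitor, had 3148 CPM in tumour 6 and 1642 in tumour 3, and 163 to 952 CPM in the other 7. Cd36, a fatty acid receptor, had 2274 CPM in tumour 6 and 689 in tumour 3, and 103 to 489.8 CPM in the other 7. Apoe, also a lipid gene, was lowest in tumour 6, with 18631 CPM there, 26644 in tumour 3 and 24885 to 33173 CPM in the other 7.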
